A study of Mus musculus with 6 samples.

Results

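The genes of bile acid synthesis and transport were examined in the livers of insulin-resistant (IR) mice, as 10 members picked by symbol from the 54532 genes of the count table: Cyp7a1, Cyp8b1, Cyp27a1, Cyp7b1, Slc27a5, Baat, Slc10a1, Abcb11, Nr1h4 and Nr0b2. All 6 animals were male C57BL/6J mice fed a high-fat diet for 6 weeks from 8 weeks of age and fasted for 16 h. Insulin (0.75 units per kg) was injected into 3 of them (IR insulin) and bovine serum albumin, its vehicle, into the other 3 (IR vehicle), and livers were taken 6 h later. Each library was the whole-liver RNA of 1 mouse, and vehicle mice shared the diet and the fast with the insulin mice. The comparison asks how insulin alters hepatic transcript levels in mice whose livers respond poorly to it. All 10 members were among the 13377 genes that passed the filter on low counts.

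Bile acids are made from cholesterol in hepatocytes. The classic route starts with CYP7A1 and the alternative route with CYP27A1 followed by CYP7B1, and the products are joined to taurine or glycine before export into bile. Bile acids returning from the gut activate the nuclear receptor FXR (Nr1h4), whose target SHP (Nr0b2) represses Cyp7a1, and the pool is thereby kept under feedback.

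No member passed the test of IR insulin against IR vehicle. The fit was edgeR's quasi-likelihood test over all 13377 genes, in which a positive log2 fold change means more RNA with insulin. Of the 10 members, 0 had an adjusted p under 0.05 (0% of all genes tested), with adjusted p values of 0.852 to 0.895, and 0 had an unadjusted p under 0.05. The criteria of the study's methods, a log2 fold change of 0.35 or more in either direction and an unadjusted p below 0.05, were thus met by 0 of 10, against 2.86% of all genes tested (1.86% as lower with insulin). The values of the groups overlapped for each of the 10, while they did not overlap for 12.3% of all genes. Fold changes were below 0 for 8 members and above 0 for Cyp8b1 and Nr1h4, with a median of −0.39 on the log2 scale beside −0.017 over all genes. Without vehicle replicate 2 the median of the members was −0.12. In whole liver, fewer cells of a type and less RNA per cell cannot be told apart.

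What varied was the level of these genes among the vehicle mice. All 10 members spread over a wider log2 range in the vehicle group than in the insulin group, as did 85.3% of all genes. The median range was 0.90 with vehicle and 0.41 with insulin for the members, and 0.99 and 0.35 for all genes, so the members followed the whole table in this. The 6 library totals were similar, at 18449986 to 21827619 counts, but 2 vehicle libraries stood apart. Vehicle replicate 2 had counts for 16470 genes, against 18389 to 18874 in the others, and its deviations from the median of the other 5 libraries ran against GC content (Spearman's rho −0.67 across 13367 genes, which are not independent; −0.15 to 0.31 in the other libraries). Vehicle replicate 3 had the summed level of 8 periportal hepatocyte markers at 10173 CPM (reads scaled by TMM to a common library size) against 2597 to 4115 CPM elsewhere. Ass1 (3970 CPM) and Pck1 (3543 CPM) led that sum. Cyp2f2 (626 CPM, at most 468 CPM elsewhere) and Hsd17b13 (414 CPM, at most 382 CPM elsewhere) were less far above the other libraries. The 9 pericentral hepatocyte markers summed to 13408 CPM in vehicle replicate 3, and to 10886 to 20224 CPM elsewhere. Of these, Cyp1a2 was also highest in vehicle replicate 3, at 424 CPM against 157 to 184 CPM elsewhere. Glul, Oat and Slc1a2 were lowest there, at 797, 1041 and 87.5 CPM. The hepatocyte markers were abundant in every library, and Alb took 4.18 to 11.5% of the counts. Alb was highest in vehicle replicate 2, at 138554 CPM against 38255 to 72891 CPM elsewhere. The bile duct marker Cftr was at 0 in all 6 libraries. Summed levels of 7 bile duct markers were 19.8 to 45.4 CPM in the vehicle mice and 23.1 to 50.8 CPM in the insulin mice. Their part in the results below was not tested.

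**Figure D1:**
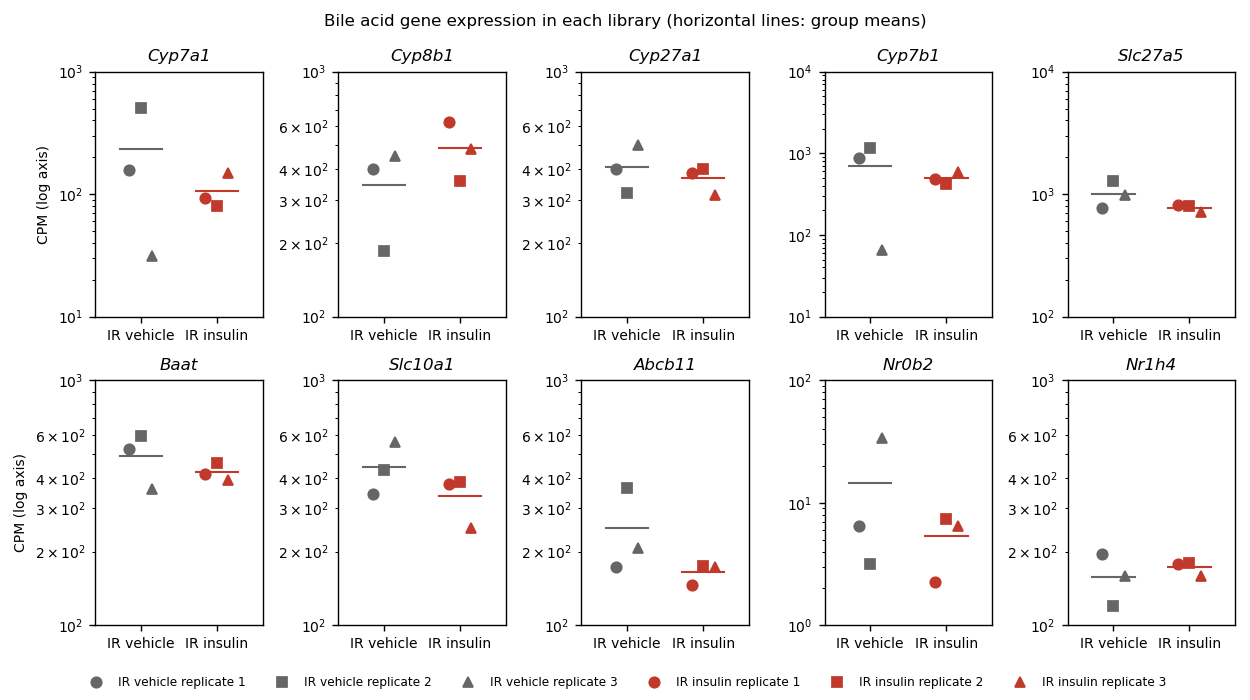
Level of each of the 10 bile acid genes in every library, in CPM on a log axis, with IR vehicle in grey, IR insulin in red, a symbol per replicate number and a horizontal line at each group mean (n = 3). Vehicle values of Cyp7a1 spanned 31.4 to 508 CPM and those of Cyp7b1 65.2 to 1149.6 CPM, each enclosing all 3 insulin values.

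Cyp7a1 encodes cholesterol 7α-hydroxylase, the rate-limiting enzyme of the classic route. It lies at chr4:6265612-6275633 (build 38, minus strand). Its levels were 157, 508 and 31.4 CPM in vehicle replicates 1, 2 and 3 and 92.7, 80.2 and 148 CPM in the insulin mice. The vehicle mice thus held both the highest and the lowest value of the 6, and the 3 insulin mice lay in between. Group means were 232 ± 247 CPM and 107 ± 36.0 CPM (SD, n = 3), and the log2 fold change was −1.12 ± 0.81 (SE; unadjusted p = 0.204). The highest vehicle value was 16.2 times the lowest, against 1.84 times among insulin mice.

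The size and the sign of the Cyp7a1 change each moved when 1 vehicle mouse was left out, and the size also moved with the processing. Without vehicle replicate 3 it was −1.64 (unadjusted p = 0.0135), a call that 6.51% of all genes shared in that fit. Without vehicle replicate 2 it was 0.18 (unadjusted p = 0.770). Cyp7a1 transcripts have a low GC content, 39.7%, and with an offset for GC content the change was −0.54 (unadjusted p = 0.431). With that offset and without vehicle replicate 3 the change was −1.03 (unadjusted p = 0.0290), beside 5.21% of all genes called. With every mouse kept, it was −0.48 with the replicate number as a block and −0.31 by voom with sample quality weights.

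Cyp8b1 encodes sterol 12α-hydroxylase, which diverts the classic route towards cholic acid. The gene lies at chr9:121914356-121916305 (minus strand). Vehicle levels were 400, 186 and 452 CPM and insulin levels 622, 358 and 482 CPM. Vehicle replicate 2 was lowest and insulin replicate 1 highest, and the other 4 values were interleaved. The log2 fold change was 0.49 ± 0.38 (SE; unadjusted p = 0.228), and it stayed between 0.14 and 0.73 under all alternatives, with 0.20 without vehicle replicate 2, 0.29 without insulin replicate 1 and 0.26 with the GC offset.

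Cyp8b1 and Cyp7a1 parted company within libraries. The ratio of Cyp8b1 to Cyp7a1 counts was 2.55, 0.366 and 14.4 in vehicle replicates 1, 2 and 3 and 6.71, 4.47 and 3.26 with insulin. Vehicle replicate 2 was the only library with more Cyp7a1 than Cyp8b1 reads. These counts were not corrected for GC content, which was 39.7% for Cyp7a1 and 54.8% for Cyp8b1. Deviations in vehicle replicate 2 ran against GC content (rho −0.67), a trend in the direction of its ratio. The part of that trend was not tested. In vehicle replicate 3, Cyp8b1 lay 0.18 above the median of the other libraries on the log2 scale while Cyp7a1 lay at −2.23.

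Cyp27a1 encodes the mitochondrial sterol 27-hydroxylase that opens the alternative route (chr1:74713574-74737892, plus strand). Its levels varied little, at 399, 319 and 501 CPM in the vehicle mice and 387, 400 and 315 CPM in the insulin mice. The log2 fold change was −0.15 ± 0.26 (SE; unadjusted p = 0.585). It was −0.29 without vehicle replicate 2, 0.032 without vehicle replicate 3, −0.038 without insulin replicate 3 and −0.36 with the GC offset.

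Cyp7b1, the oxysterol 7α-hydroxylase that acts next on this route, lies at chr3:18071950-18243338 (minus strand). It overlaps Gm23686 on its own strand, so its counts carry some uncertainty. Levels were 865, 1149.6 and 65.2 CPM in vehicle replicates 1, 2 and 3 and 483, 422 and 590.3 CPM in the insulin mice. A single mouse, vehicle replicate 3, was far below the rest, and the other vehicle mice were both above all insulin mice. Over all 6 mice the log2 fold change was −0.48 ± 0.79 (SE; unadjusted p = 0.566). Cyp7b1 transcripts have a GC content of 42.5%, and with the GC offset the change was −0.13 (unadjusted p = 0.861).

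Without vehicle replicate 3, Cyp7b1 passed the study's criteria at −1.02 (unadjusted p = 0.00593, adjusted p = 0.527). Without vehicle replicate 2 instead, the value was 0.10 (unadjusted p = 0.909), and without vehicle replicate 1 it was −0.28. With the GC offset and without vehicle replicate 3 it was −0.66 (unadjusted p = 0.0228), beside 5.21% of all genes called. The deviation of Cyp7b1 in vehicle replicate 3 was −3.18 on the log2 scale, and 60 of the 13377 genes (0.449%) were as far below in that library. The ratio of Cyp7b1 to Cyp27a1 counts was 0.130 there, against 1.06 to 3.60 in the other 5 libraries.

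Slc27a5 and Baat encode the bile acid-CoA ligase and the amino acid N-acyltransferase that conjugate bile acids. Slc27a5 (chr7:12988346-12998192, minus strand) was at 772, 1275 and 988 CPM in the vehicle mice and 813, 799 and 721 CPM in the insulin mice. Its 2 highest values were vehicle replicates 2 and 3, and the log2 fold change was −0.38 ± 0.27 (SE; unadjusted p = 0.197). Baat (chr4:49489422-49506557, minus strand) was at 523, 593 and 361 CPM in the vehicle mice and 413, 460 and 390.4 CPM in the insulin mice. Here vehicle replicate 3 was the lowest library, and the log2 fold change was −0.23 ± 0.26 (SE; unadjusted p = 0.415). The Baat change was −0.066 without vehicle replicate 2, −0.071 with the GC offset, and −0.41 when vehicle replicate 3 was left out. The Slc27a5 change was −0.67 with the GC offset (unadjusted p = 0.0818) and −0.17 without vehicle replicate 2 (unadjusted p = 0.421).

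Slc10a1 encodes NTCP, the sodium-dependent carrier that takes conjugated bile acids up from portal blood (chr12:80953183-80968705, minus strand). Its levels were 345, 431 and 558 CPM in the vehicle mice and 378, 387 and 250.1 CPM in the insulin mice. Insulin replicate 3 was the lowest and vehicle replicate 3 the highest. The log2 fold change was −0.39 ± 0.29 (SE; unadjusted p = 0.210). Leaving out either of these 2 mice brought it closer to 0, to −0.20 without vehicle replicate 3 and −0.21 without insulin replicate 3.

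Abcb11 encodes BSEP, the canalicular pump that exports bile salts (chr2:69238282-69342616, minus strand). It overlaps Gm13613 and Gm13614 on the opposite strand, and whether reads were counted by strand is not given. Levels were 173, 365 and 207 CPM in the vehicle mice and 146, 174 and 174 CPM in the insulin mice. Vehicle replicate 2 was highest, vehicle replicate 1 was within the insulin values, and the log2 fold change was −0.59 ± 0.31 (SE). Its unadjusted p of 0.0958 was the smallest of the 10 members.

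Leaving out vehicle replicate 1 brought Abcb11 past the study's criteria, at −0.80 (unadjusted p = 0.0388), in a fit that called 9.81% of all genes. Without vehicle replicate 2 the value was −0.20 (unadjusted p = 0.269), in a fit that called 3.69%.

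Nr1h4 encodes FXR, the bile acid receptor (chr10:89454234-89533585, minus strand). Its levels were 195, 119.8 and 158 CPM in the vehicle mice and 179, 180.3 and 159.7 CPM in the insulin mice. The insulin values lay within the vehicle range, and the log2 fold change was 0.13 ± 0.25 (SE; unadjusted p = 0.609). Without vehicle replicate 2, the lowest library, the value was −0.029, and without vehicle replicate 1, the highest, 0.32.

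Nr0b2 encodes SHP, the FXR target that represses Cyp7a1 and Cyp8b1. The gene lies at chr4:133553376-133556536 (plus strand). Reads were few outside vehicle replicate 3, with 122, 52 and 711 counts in vehicle replicates 1, 2 and 3 and 50, 171 and 141 counts with insulin. Scaled to library size these were 6.45, 3.19 and 33.9 CPM in the vehicle mice and 2.25, 7.40 and 6.50 CPM in the insulin mice. One vehicle mouse was thus far above the other 5, which overlapped. Group means were 14.5 ± 16.9 CPM and 5.39 ± 2.75 CPM (SD, n = 3), and the log2 fold change was −1.43 ± 0.84 (SE; unadjusted p = 0.128).

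Without vehicle replicate 3 the Nr0b2 change was 0.16 (unadjusted p = 0.788). It passed the study's criteria without vehicle replicate 2, at −1.90 (unadjusted p = 0.0303), and with the GC offset, at −1.61 (unadjusted p = 0.0472), where 3.53% of all genes did. With that offset and without vehicle replicate 2 it was −1.93 (unadjusted p = 0.0273), beside 3.74% of all genes. With no filter on low counts it was −1.40 (unadjusted p = 0.0392). The adjusted p of every member stayed between 0.506 and 0.9997 across all 14 alternatives.

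**Figure D2:**
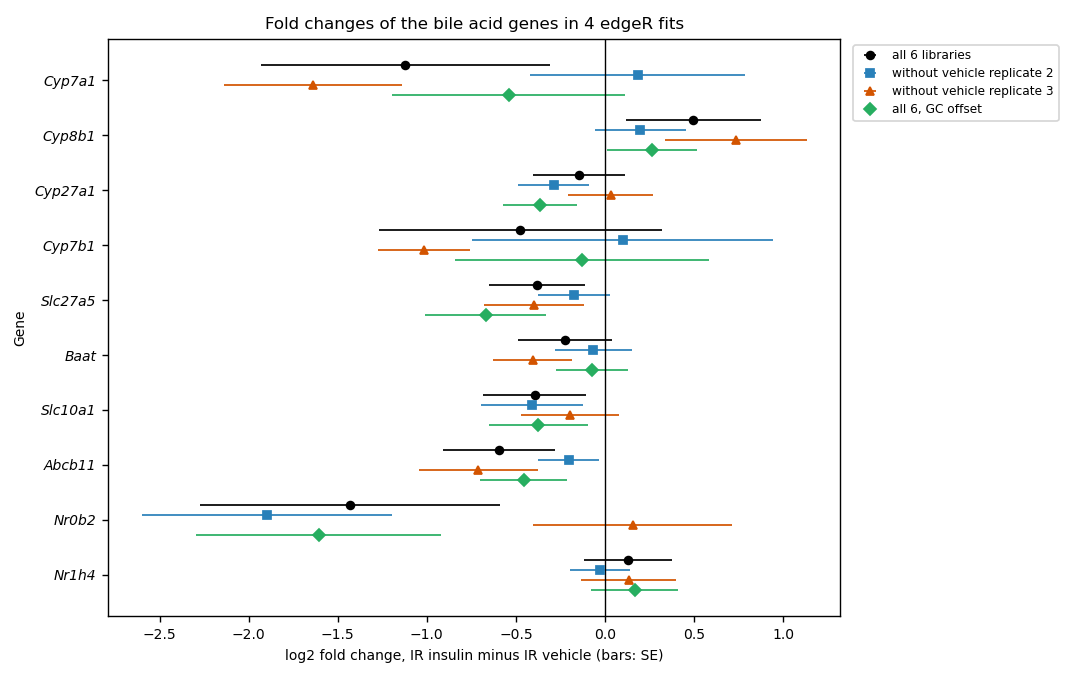
log2 fold change of each bile acid gene (IR insulin minus IR vehicle, with SE) in 4 edgeR fits: all 6 libraries, without vehicle replicate 2, without vehicle replicate 3, and all 6 with an offset for GC content. Cyp7a1 moved from −1.64 to 0.18 and Nr0b2 from 0.16 to −1.90 according to which vehicle mouse was left out, and Cyp8b1 stayed above 0.

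The mouse with the most Nr0b2 RNA was the mouse with the least Cyp7a1 and Cyp7b1 RNA. In vehicle replicate 3, Nr0b2 lay 2.38 above the median of the other 5 libraries on the log2 scale, and 39 of 13377 genes (0.292%) were as high there. Cyp7a1 lay at −2.23, as low as 198 genes (1.48%). In vehicle replicate 2 the order was opposite, with Cyp7a1 at 2.45 (34 genes, 0.254%, as high) and Nr0b2 at −1.0 (2764 genes, 20.7%, as low). That Nr0b2 value came from 52 counts and was not unusual in that library. The ratio of Cyp7a1 to Nr0b2 counts was 24.3, 159 and 0.925 in vehicle replicates 1, 2 and 3, and 41.2, 10.8 and 22.7 with insulin. This ratio was not corrected for GC content (39.7% for Cyp7a1 and 57.8% for Nr0b2). The GC trend of vehicle replicate 2 runs in the direction of its value of 159, and its part was not tested. Insulin replicate 1 had the least Nr0b2 of all, −1.49 from the others, with Cyp7a1 at −0.67, so low Nr0b2 did not always go with high Cyp7a1. These mice were noticed after their values were seen, and no test was made of the relation.

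**Figure D3:**
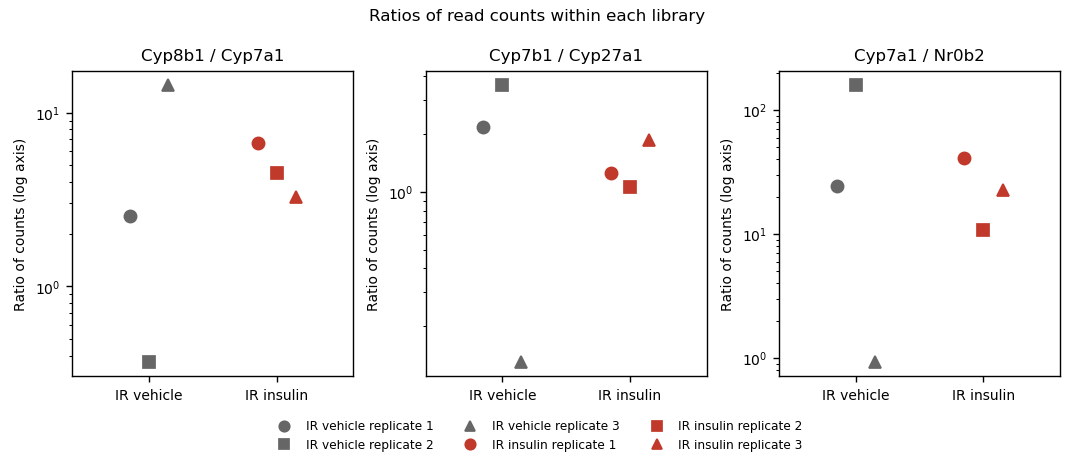
Ratios of read counts between pairs of bile acid genes within each library, on log axes, with IR vehicle in grey, IR insulin in red and a symbol per replicate number. Vehicle replicates 2 and 3 hold the opposite ends of each ratio (0.366 and 14.4 for Cyp8b1 to Cyp7a1, 159 and 0.925 for Cyp7a1 to Nr0b2), with all insulin libraries between them. The counts were not corrected for GC content.

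Promoter sequences bear on these genes because SHP acts through LRH-1 (Nr5a2) and FXR through nuclear receptor sites. RefSeq (GRCm38.p6) gave the 250 bases before the start for 6 of the 10 members, in 7 promoters; those of Cyp7a1, Cyp7b1, Baat and Slc27a5 were not analysed here. Shown 5′ to 3′ are those of Nr0b2 (chr4:133553126-133553375, plus strand) and Cyp8b1 (chr9:121916306-121916555, minus strand), which diverged from Cyp7a1 in vehicle replicate 3, and of the exporter Abcb11 (chr2:69342617-69342866, minus strand). Capitals mark CAAGGNCA, the letters of the LRH-1 site, in the first pair and AGGTCA, a nuclear receptor motif, as its reverse complement in Abcb11.
Nr0b2: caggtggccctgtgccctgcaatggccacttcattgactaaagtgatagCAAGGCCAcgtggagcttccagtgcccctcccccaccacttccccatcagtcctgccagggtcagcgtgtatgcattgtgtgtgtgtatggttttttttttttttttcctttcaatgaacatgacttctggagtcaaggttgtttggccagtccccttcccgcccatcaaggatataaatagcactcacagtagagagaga
Cyp8b1: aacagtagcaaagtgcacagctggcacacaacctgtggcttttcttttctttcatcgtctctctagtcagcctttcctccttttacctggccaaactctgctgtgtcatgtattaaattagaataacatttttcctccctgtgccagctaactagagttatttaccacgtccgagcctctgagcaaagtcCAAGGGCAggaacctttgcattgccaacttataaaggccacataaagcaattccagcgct
Abcb11: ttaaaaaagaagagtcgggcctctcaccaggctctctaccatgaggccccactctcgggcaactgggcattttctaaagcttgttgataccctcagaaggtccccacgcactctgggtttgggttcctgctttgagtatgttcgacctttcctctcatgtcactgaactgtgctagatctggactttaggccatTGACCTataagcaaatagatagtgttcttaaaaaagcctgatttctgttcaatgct

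The LRH-1 letters were at −201 to −194 from the start of Nr0b2, as CAAGGCCA, and at −60 to −53 of Cyp8b1, as CAAGGGCA. Searched on both strands, CAAGGNCA was in 5.53% of all 32851 mouse promoters of this length. The letters AGGTCA were in 14.0% of them and, among members, in Abcb11 at −56 to −51, in Slc10a1 at −87 to −82 of the second of its starts, and in Nr1h4 at −214 to −209. The Cyp27a1 promoter held neither. A match describes the letters and does not show that a factor binds, and no match says only that the letters are not in this window.

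Per kilobase of the longest transcript, the order of the members by median level over the 6 libraries was Slc27a5 (352 CPM per kb), Cyp7b1 (248), Baat (225), Slc10a1 (219), Cyp8b1 (218), Cyp27a1 (208), Nr1h4 (84.1), Abcb11 (34.6), Cyp7a1 (28.8) and Nr0b2 (5.72). The ranges of neighbours over the libraries overlapped, save for Cyp27a1 (166 to 265 CPM per kb) and Nr1h4 (59.5 to 97.1). Cyp7b1 alone ran from 30.1 to 531 CPM per kb. Cyp7a1, at 7.52 to 122 CPM per kb, overlapped both Abcb11 (29.0 to 72.7) and Nr1h4. Nr0b2 reached 30.0 CPM per kb in vehicle replicate 3, the library in which Cyp7a1 was at 7.52.

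Other genes of bile acid metabolism were read in 3 lists of 46 genes, 40 of which were tested. Of these 40, 2 passed the study's criteria, both lower with insulin, beside 2.86% of all genes (1.86% lower), and 0 had an adjusted p under 0.05. Fold changes were below 0 for 29 of 40, beside 51.4% of all genes, and for 11 of 11 transporters tested (median −0.46). Of these 11, 6 were highest in vehicle replicate 2 and 4 in vehicle replicate 3, beside 35.8% and 23.4% of all genes. Abcc3, 1 of the 11, was at −0.00031 (unadjusted p = 0.999). The median was −0.17 over 14 synthesis enzymes, with 10 below 0, and −0.0069 over 15 regulators, with 8 below 0. The groups did not overlap for 5 of the 40, a share near the 12.3% of all genes.

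Among the synthesis enzymes, Akr1d1, the 5β-reductase of the steroid nucleus, was 1 of the 2 genes past the criteria. Its levels were 107, 130.0 and 191 CPM in the vehicle mice and 72.6, 114 and 70.7 CPM in the insulin mice, and the log2 fold change came to −0.73 ± 0.31 (SE; unadjusted p = 0.0459). Insulin replicate 2 lay within the vehicle range, and Akr1d1 overlaps Gm7463 on its strand. Without vehicle replicate 3 the value was −0.46 (unadjusted p = 0.144) and with the GC offset −0.57 (unadjusted p = 0.162). The criteria were also missed without insulin replicate 1 (unadjusted p = 0.157) or insulin replicate 3 (unadjusted p = 0.160).

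Cyp39a1, the 24-hydroxycholesterol 7α-hydroxylase, was high in the same mouse as Nr0b2, at 8.51, 14.9 and 69.6 CPM in the vehicle mice and 8.87, 12.0 and 9.09 CPM in the insulin mice. With all mice the log2 fold change was −1.63 ± 0.71 (SE; unadjusted p = 0.0501), and without vehicle replicate 3 it was −0.22. It passed the criteria by DESeq2 (unadjusted p = 0.0144) and without vehicle replicate 1 (unadjusted p = 0.0121) or vehicle replicate 2 (unadjusted p = 0.0271). Abcd3, a peroxisomal importer of bile acid precursors, was at 533, 1071 and 505 CPM in the vehicle mice and 433, 475 and 405 CPM in the insulin mice, without overlap. Its log2 fold change was −0.68 ± 0.34 (SE; unadjusted p = 0.0788), and it came to −0.24 once vehicle replicate 2 was left out, and to −0.87 once vehicle replicate 3 was (unadjusted p = 0.0305). Fdx1, the ferredoxin that passes electrons to CYP27A1, was at 107, 102 and 116 CPM and 91.3, 102 and 83.5 CPM, and the log2 fold change came to −0.23 ± 0.21 (SE; unadjusted p = 0.297), or −0.15 without insulin replicate 3.

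Of the transporters, 0 of 11 passed the criteria by edgeR. By DESeq2, Slco1a4 (unadjusted p = 0.0498) and Slc10a2 (unadjusted p = 0.0405) did, beside 3.79% of all genes. Both also did in edgeR with no filter on low counts, where 3.22% of all genes passed. Slco1a4, a sinusoidal organic anion transporter, was at 8.67, 21.6 and 196 CPM in the vehicle mice and 20.4, 15.9 and 7.66 CPM in the insulin mice. The vehicle replicate 3 value was 3.61 above the others on the log2 scale, and 8 of 13377 genes (0.0598%) were as high there. With all mice its log2 change came to −2.36 ± 1.04 (SE; unadjusted p = 0.0527), and without that one to −0.046. It passed the criteria without vehicle replicate 1 (unadjusted p = 0.0143) and without vehicle replicate 2 (unadjusted p = 0.0292).

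Slc10a2 encodes ASBT, the apical sodium-dependent bile acid carrier best known from the ileum and bile duct cells. Among the vehicle mice it had the order of Cyp7a1, though not among the insulin mice, at 32.6, 145 and 11.4 CPM in the vehicle mice and 19.5, 29.1 and 19.3 CPM in the insulin mice. Vehicle mice were again at both ends, and the log2 fold change was −1.47 ± 0.79 (SE; unadjusted p = 0.0982). The value came to 0.050 once vehicle replicate 2 was left out and to −1.97 once vehicle replicate 3 was (unadjusted p = 0.0100). Slc10a2 transcripts have a low GC content, 35.7%, and with the GC offset the change was −0.80 (unadjusted p = 0.207). With that offset and without vehicle replicate 3 it was −1.28 (unadjusted p = 0.0113).

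Slco1a1, a second member of the same anion transporter family, was at 344, 1185 and 411 CPM in the vehicle mice and 351, 363 and 347 CPM in the insulin mice. Vehicle replicate 2 stood alone, and the log2 fold change was −0.87 ± 0.46 (SE; unadjusted p = 0.0986). The Slco1a1 value was −0.088 without that mouse and −0.40 with the GC offset, and it passed the criteria without vehicle replicate 1 (−1.17, unadjusted p = 0.0350) and without vehicle replicate 3 (−1.11, unadjusted p = 0.0487). Abcc4, a basolateral exporter, was low in every mouse, at 2.54, 2.89 and 3.43 CPM and 2.21, 1.86 and 1.57 CPM. Its groups did not overlap, and the log2 fold change came to −0.65 ± 0.33 (SE; unadjusted p = 0.0857). The Slco1a genes are close relatives, and reads can be split between them.

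Klb encodes β-Klotho, the co-receptor through which FGF15 from the gut lowers Cyp7a1, and it was the other gene past the criteria. Its levels were 9.09, 17.4 and 37.9 CPM in the vehicle mice and 7.34, 9.31 and 10.9 CPM in the insulin mice. Vehicle replicate 1 was within the insulin values. The log2 fold change was −1.22 ± 0.49 (SE; unadjusted p = 0.0361), and −0.52 without vehicle replicate 3 (unadjusted p = 0.172). Leaving out insulin replicate 1, 2 or 3 gave −1.08, −1.23 and −1.35 (unadjusted p = 0.106, 0.0800 and 0.0606), in fits that called 0.727 to 1.05% of all genes. Klb also missed the criteria by voom (unadjusted p = 0.155). It passed by DESeq2 (unadjusted p = 0.0157), with the GC offset (0.0270) and with the replicate number as a block (0.0240). It also passed without vehicle replicate 1 (0.00559) or vehicle replicate 2 (0.0349). These 5 fits called 2.40 to 9.81% of all genes. Fgf15 itself was at 0 counts in all 6 libraries.

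Nr5a2, which encodes LRH-1, was at 40.3, 82.8 and 45.3 CPM in the vehicle mice and 34.8, 39.1 and 45.6 CPM in the insulin mice, and the log2 fold change came to −0.49 ± 0.31 (SE; unadjusted p = 0.153). The Nr5a2 value was −0.098 without vehicle replicate 2 and −0.26 with the GC offset. Ppargc1a, the coactivator PGC-1α, was at 3.44, 5.03 and 9.44 CPM and 4.77, 2.81 and 3.69 CPM, with −0.67 ± 0.43 (SE; unadjusted p = 0.156), and −0.17 without vehicle replicate 3. Cyp39a1, Abcd3, Slco1a1, Abcc4 and Ppargc1a each overlap another annotated gene, and their counts are uncertain.

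**Figure D4:**
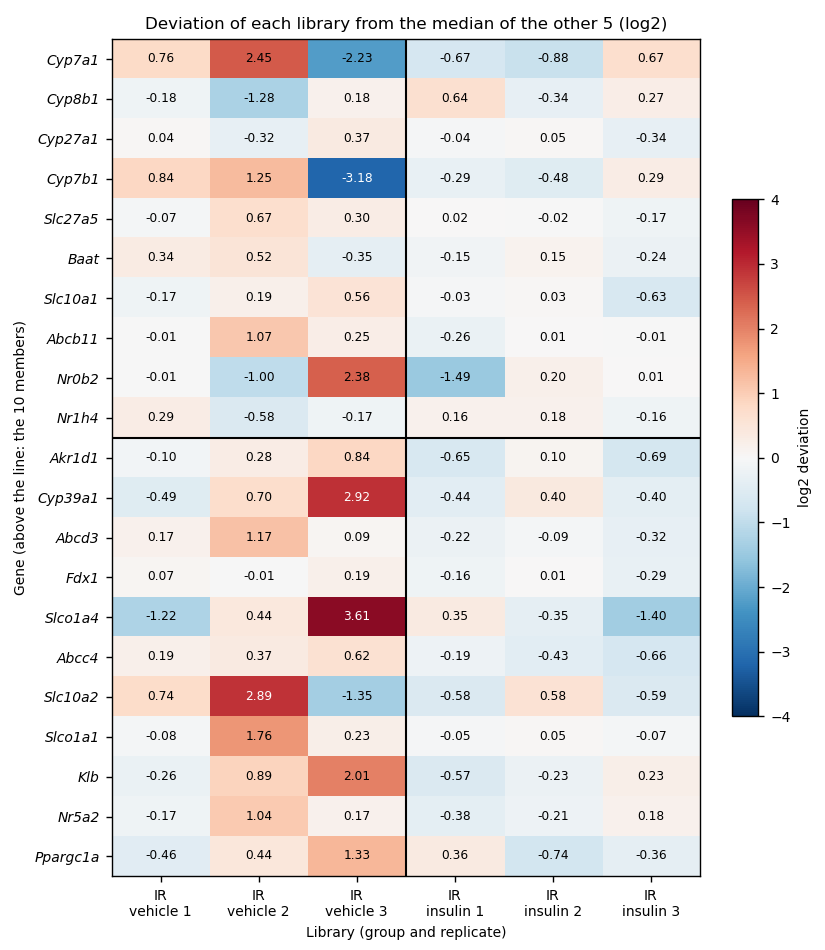
Log2 deviation of each library from the median of the other 5, for the 10 members (above the line) and 11 further bile acid genes, with vehicle libraries left of the vertical line and red for higher. The largest values sit in the columns of vehicle replicates 2 and 3, from −3.18 for Cyp7b1 to 3.61 for Slco1a4 in vehicle replicate 3.

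Genes whose profile over the 6 libraries was most like that of Cyp7a1, by the root mean square difference of centred log2 CPM among 7422 genes of at least 10 CPM, were Gda (0.18), Mup11 (0.24) and Crp (0.26). Gda, which encodes guanine deaminase, was at 91.8, 370 and 19.9 CPM in the vehicle mice and 57.6, 69.1 and 100.05 CPM in the insulin mice. Mup11 is 1 of a family of near-identical genes, and its counts are uncertain. For Nr0b2 the nearest were Klf15 (0.55), Cyp17a1 (0.55) and G6pc (0.59). Klf15, a transcription factor gene induced by fasting, was at 234 CPM in vehicle replicate 3 and at 45.9 to 66.0 CPM in the other mice. Cyp17a1, a steroid hydroxylase gene, was at 45.1 CPM in vehicle replicate 3 and at 5.71 to 13.7 CPM in the rest. G6pc, the catalytic subunit of glucose-6-phosphatase, was at 122, 104 and 365 CPM in the vehicle mice and 61.9, 80.7 and 126 CPM in the insulin mice. These likenesses rest on 6 libraries and mainly on vehicle replicates 2 and 3.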

How the data were processed

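Liver RNA of 3 IR insulin and 3 IR vehicle mice was sequenced, and the authors deposited raw read counts for each gene and mouse as whole numbers. According to the labels and the study's methods, libraries were made with the NEBNext Ultra kit and reads aligned with Bowtie2 2.2.3 to mm10. How reads were counted (program, annotation release and strand) is not given in the sources used here, so counts of overlapping genes are uncertain. Groups and replicate numbers came from the sample labels, which give no date or batch. The labels number the replicates, but p values measure only the spread between these 6 mice.

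The groups were compared with edgeR 4.0.16 (R 4.3.3; TMM, glmQLFit, glmQLFTest, filterByExpr at its minimum of 10 counts and 15 in total), with Benjamini-Hochberg adjustment over 13377 genes. The script was tested on simulated data with large planted changes and less spread than the real libraries. Those data had no deviant library and no GC trend, so the test does not cover these features. SEs were derived from the F statistic. An exact permutation test of 3 against 3 cannot give a p under 0.1 and was not used. Levels (CPM) are counts divided by the TMM-adjusted library size. Totals ran from 18449986 to 21827619 counts, without molecular identifiers, and the spread between mice (biological coefficient of variation 0.357) limited the precision. Coordinates, overlaps, transcript lengths and GC content came from GENCODE mouse release 21 (build 38), which held 54495 of the 54532 genes; 13367 of the genes tested had a GC content. Deviations used log2 CPM with a prior count of 2.

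The 10 members and all gene lists were chosen with earlier results of these data known. Besides the members, the 4 tested genes of each list with the smallest unadjusted p were named, and the 3 genes most like Cyp7a1 and like Nr0b2. Results of 1 further gene so chosen are not reported, though counts over lists and named genes include it. Alternatives were RLE size factors, no filter on low counts, DESeq2 1.42.0 (the authors' tool), voom with sample quality weights (limma 3.58.1), a GC offset (loess span 0.5), the replicate number as a block, each library left out, and, chosen after seeing the data, the GC offset without vehicle replicate 2 or 3.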

Additional observations from a re-analysis of the deposited data

How the results depend on the processing

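Of 308 values of 22 named genes under 14 alternatives, 251 kept their direction and their side of the study's criteria, 28 newly passed them, 13 no longer did and 16 changed sign. The 10 members past the criteria numbered 0 with all libraries and 0 to 2 with 1 library left out. They numbered 1 with no filter on low counts (Nr0b2), 1 with the GC offset, and 1 and 2 with that offset and without vehicle replicates 2 and 3. The count at an adjusted p under 0.05 was 0 throughout.

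Of the other bile acid genes, 2 passed with all libraries and 0 to 6 with 1 library left out. They numbered 6 with no filter (where 3.22% of all genes passed), 5 by DESeq2 (3.79%), 0 by voom (1.59%), 1 with the GC offset (3.53%), 1 with the replicate block (2.40%), and 5 with the GC offset without vehicle replicate 2 (3.74%). With 1 library left out, 0.727 to 9.81% of all genes passed.

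Without vehicle replicate 2 the log2 fold change became 0.18 for Cyp7a1, 0.10 for Cyp7b1, −0.029 for Nr1h4 and 0.050 for Slc10a2. With the GC offset as well these were 0.28, 0.18, −0.048 and 0.14. Without vehicle replicate 3 it became 0.032 for Cyp27a1 and 0.16 for Nr0b2. With the GC offset and without vehicle replicate 3 it became 0.10 for Cyp39a1, 0.065 for Fdx1, 0.47 for Slco1a4 and 0.23 for Ppargc1a. By voom it was −0.038 for Nr1h4. The quality weights of voom were lowest for vehicle replicate 2, at 0.12 against 0.43 to 3.29 in the other libraries. In that fit Cyp7a1 was at −0.31 and Abcb11 at −0.23, and the median of the members was −0.13. Over the fits with 1 library left out, values ran from −1.64 to 0.18 for Cyp7a1, −1.02 to 0.10 for Cyp7b1, −0.29 to 0.032 for Cyp27a1, −1.90 to 0.16 for Nr0b2, −0.029 to 0.32 for Nr1h4 and −1.97 to 0.050 for Slc10a2. The cause was not tested.

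Deviations from the group means in same-numbered vehicle and insulin libraries had correlations of −0.039, 0.069 and 0.017 for replicates 1, 2 and 3. Pairs with unlike numbers ran from −0.110 to 0.089. These values cannot tell whether same-numbered mice shared a date or batch, which the labels do not give. With the replicate block, Cyp7b1 was at 0.076, and 321 genes had an unadjusted p under 0.05, against 383 without it.

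Each fit without 1 library leaves 2 mice in a group. Nr0b2, at 50 to 171 counts outside vehicle replicate 3, is the member most limited by depth.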

Other observations

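Further genes of the bile acid lists, named after their values were seen, set the same vehicle mice apart. Nr1d1 and Dbp, which belong to the circadian clock and its output, were highest in vehicle replicate 3, at 44.2 and 70.2 CPM. In the remaining mice Nr1d1 ranged from 4.91 to 17.6 CPM and Dbp from 5.59 to 33.0 CPM. Mafg, a small Maf repressor gene, reached 84.8 CPM in the same mouse, with 17.3 to 43.7 CPM in the rest. Nr1d1, Dbp and Mafg each overlap another annotated gene, and their counts are uncertain. Slco1b2, a sinusoidal organic anion transporter, reached 3707 CPM in vehicle replicate 2, with 879 to 1182 CPM in the rest. Its transcripts have a GC content of 38.6%, and deviations in that library ran against GC content (rho −0.67). The part of that trend was not tested. None of these 4 genes had an unadjusted p under 0.05 in edgeR (0.113 to 0.772).

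Of the 40 further genes tested, 16 were lowest in vehicle replicate 2 and 16 were highest in vehicle replicate 3, where 37.4% and 23.4% of all genes tested were. The bile acid genes left out by the filter on low counts were Hsd3b7, Ch25h, Slc51a, Slc51b, Gpbar1 and Fgf15, each under 1 CPM in every library. Hsd3b7, a synthesis enzyme gene of the liver, had at most 0.675 CPM. It overlaps Gm49388 on its strand and 9430064I24Rik on the other, and its counts are uncertain.

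The summed level of 5 erythroid genes was 626, 1587 and 413 CPM in vehicle replicates 1, 2 and 3 and 343, 478 and 312 CPM in the insulin mice. Of the 5, 4 passed the study's criteria as lower with insulin (edgeR), beside 1.86% of all genes. These 4 are all globin genes. Each of the 5 was highest in vehicle replicate 2, with Hba-a2 at 353 CPM against 6.58 to 22.7 CPM elsewhere. The groups overlapped for all of them except Hba-a1. Values without that mouse are not reported for them. Kupffer cell markers summed to 263 to 372 CPM in the vehicle mice and 276 to 535 CPM in the insulin mice, and 0 of 7 passed.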
